A study of Mus musculus with 18 samples.

Results

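Ntn4, Prss23, Slc6a4, Itih5 and Lrp4 are 5 mouse genes that stood higher in hair follicle bulge cells that had divided than in bulge cells that had not, at postnatal day 25 (PD25). They were chosen by the measured difference between these fractions at PD25, so that difference is described here and supports nothing. They are 5 of the 11569 genes that could be tested, and 10 probe sets carry their symbols, 2 for Ntn4, 3 for Prss23, 1 for Slc6a4, 3 for Itih5 and 1 for Lrp4. All 10 passed the filter on low signals. Ordered by the size of this difference relative to its error, they are the first 5 of all genes. The last of them was Lrp4, at 1.22 ± 0.25 on the log2 scale (SE of the fit, n = 3 mice per fraction), and the first gene outside was Nptx1, at 2.18 ± 0.46 on the log2 scale.

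The data are 18 Affymetrix MOE 430 2.0 arrays in 6 groups of 3. All mice carried K5tTA (FvB) together with pTREH2B-GFP (CD1), so that the keratin 5 promoter drove a tetracycline-controlled activator, and with it a histone-bound green fluorescent protein, in basal keratinocytes. Doxycycline at 1 g per kg of food shut the reporter off in every group, from PD22 to PD25 in 3 mice and from PD18 to PD21 in 3 other mice, and the label was then diluted at each division. There was no undosed group. From each mouse, sorting gave bulge cells with 1 to 2 divisions (divided bulge), bulge cells with 0 divisions (undivided bulge) and cells outside the bulge (non-bulge), for which no division number is given. The 6 groups were therefore divided, undivided and non-bulge cells at PD25 and the same fractions at PD21. Each array held amplified RNA of 1 fraction of 1 mouse, starting from 5 ng, and no array was repeated. Promoter activity of keratin 5 limits the reporter to the cells that use it.

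The bulge is the part of the hair follicle that houses its stem cells, which rest for long periods and divide a few times around the start of a new hair cycle. Cells of the bulge sit on a basement membrane rich in laminin, receive Wnt and BMP signals, and hand daughters to the growing follicle. The products of the 5 genes are known mainly from the cell surface and the matrix, and 3 of them are secreted. Ntn4 encodes netrin-4, a secreted netrin that binds laminin short arms and disturbs laminin network assembly. Prss23 encodes a secreted serine protease. Slc6a4 encodes the serotonin transporter, which carries serotonin from outside a cell into it and is best known from neurons and platelets. Itih5 encodes a secreted inter-alpha-trypsin inhibitor heavy chain, a family whose members bind hyaluronan. Lrp4 encodes a receptor of the LDL receptor family that binds agrin at the neuromuscular junction and binds the Wnt inhibitors sclerostin and Sostdc1.

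Promoter windows of RefSeq (build GRCm38.p6, 250 bases before to 50 after a gene start) were found for 4 of the 5 genes and are shown because the members moved together across the arrays. Capitals mark matches to any of 8 short motifs searched on both strands. All sequences run 5′ to 3′ on the strand of the gene, and Prss23 is shown at the outermost of its 7 starts. The windows are chr10:93640799-93641098 on the plus strand for Ntn4, chr7:89527138-89527437 on the minus strand for Prss23, chr11:76998347-76998646 on the plus strand for Slc6a4 and chr2:10153293-10153592 on the plus strand for Itih5.
Ntn4: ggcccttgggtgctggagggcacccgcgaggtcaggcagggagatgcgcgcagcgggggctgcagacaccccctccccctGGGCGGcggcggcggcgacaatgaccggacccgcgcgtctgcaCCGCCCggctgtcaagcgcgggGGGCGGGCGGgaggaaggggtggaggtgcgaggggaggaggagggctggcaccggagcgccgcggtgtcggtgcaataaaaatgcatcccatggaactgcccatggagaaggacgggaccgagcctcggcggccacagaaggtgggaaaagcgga
Prss23: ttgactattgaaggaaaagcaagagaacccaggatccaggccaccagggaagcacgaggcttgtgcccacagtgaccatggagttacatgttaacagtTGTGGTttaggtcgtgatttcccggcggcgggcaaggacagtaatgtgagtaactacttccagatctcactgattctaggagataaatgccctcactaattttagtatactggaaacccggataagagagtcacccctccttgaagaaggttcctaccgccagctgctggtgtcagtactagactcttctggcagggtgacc
Slc6a4: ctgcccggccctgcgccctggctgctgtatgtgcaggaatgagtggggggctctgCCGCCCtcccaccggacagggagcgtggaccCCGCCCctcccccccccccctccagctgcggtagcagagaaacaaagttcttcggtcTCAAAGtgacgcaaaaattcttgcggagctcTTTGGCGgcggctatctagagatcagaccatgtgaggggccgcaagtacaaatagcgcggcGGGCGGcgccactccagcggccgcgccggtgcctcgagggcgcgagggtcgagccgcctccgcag
Itih5: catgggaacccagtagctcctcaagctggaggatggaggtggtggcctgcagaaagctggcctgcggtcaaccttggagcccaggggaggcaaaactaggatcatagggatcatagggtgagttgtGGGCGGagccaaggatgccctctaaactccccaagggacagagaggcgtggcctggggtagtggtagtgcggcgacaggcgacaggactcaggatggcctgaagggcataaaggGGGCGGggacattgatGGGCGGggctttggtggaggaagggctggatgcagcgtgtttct
The capitals in Ntn4 are 4 matches to the Sp1/KLF motif GGGCGG, of which a pair overlaps. Itih5 had 3 such matches that stood apart, and Slc6a4 had 3. The Sp1/KLF motif was in 35.7% of the 32851 windows of the table, and the Prss23 window shown had no match to it. That window had 1 match to the RUNX motif TGTGGT, which 16.8% of windows held. Slc6a4 also had 1 match to the E2F motif TTTGGCG, which 1.6% of windows held, and 1 to the TCF/LEF motif CTTTGA, which 16% held. The CHR motif TTTGAA (17.9% of windows), the homeobox motif TAATTA (5.3%), the E-box CACGTG (7.2%) and the TATA box TATAAA (13.6%) had no match in the windows shown. GC content was 72.0% in the window of Ntn4, 67.7% in Slc6a4, 60.7% in Itih5 and 49.7% in Prss23, beside a median of 52.7% over all windows. Of the other Prss23 starts, numbers 4 to 7 had Sp1/KLF matches and number 4 also a CHR match.

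Arrays were comparable in scale, since the 2% trimmed mean of each was 500, and mean signals lay between 666.7 and 868.9. They fell into a set of 9 arrays with means of 810.8 to 868.9 (PD25 mouse 1, PD21 mice 1 and 2) and a set of 9 arrays with means of 666.7 to 730.6 (PD25 mice 2 and 3, PD21 mouse 3). The labels name no batch, each set holds all 6 groups, and the sets are called A and B below. The PD25 divided bulge array of mouse 1 stood apart, with the lowest median correlation with the other arrays (0.905, against a highest of 0.939) and the highest Gapdh 3′ to 5′ signal ratio (11.6, against a lowest of 3.1). Its effect on the PD25 results is given beside them. At PD25 the mRNA of Cd34, whose protein is the surface marker of the gate, matched the labels of the sort. Its signals were 3411.4, 3007.3 and 7445.1 in divided bulge, 5788.8, 4837.9 and 5469.3 in undivided bulge, and 21.8, 30.9 and 1.4 in non-bulge cells. At PD21 Cd34 signals were 568.5, 224.7 and 806.8 in divided bulge, 8912.8, 5402.8 and 6491.3 in undivided bulge, and 1.1, 1.1 and 25.1 in non-bulge cells. Divided bulge at PD21 thus lay between the other fractions, far under undivided bulge, in the mRNA of the marker that defined its gate. Signals are linear, and the values of one probe set cannot be set against those of another. Nothing in the labels speaks of pooled animals, so n counts mice.

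**Figure D1:**
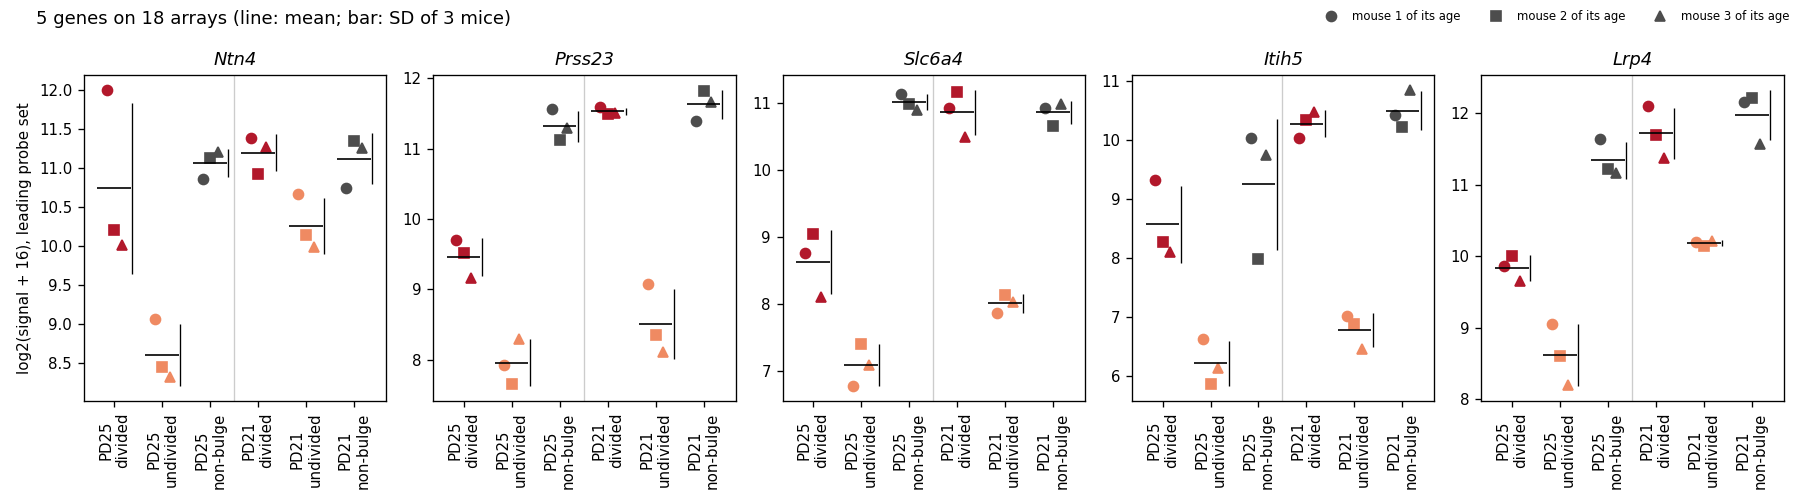
Signal of the leading probe set of each gene, as log2(signal + 16), in the 6 groups. Each point is 1 array (1 mouse), the line is the mean and the bar the SD of 3 mice. In Slc6a4, for example, the PD25 divided arrays (258.7 to 510.4 on the linear scale) lie above the PD25 undivided arrays (94.2 to 153.5) and under the PD25 non-bulge arrays (1883.2 to 2229.7).

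At PD25, the age whose arrays chose the genes, netrin-4 mRNA gave signals of 4110.5, 1157.2 and 1016.9 in divided bulge (mouse 1, 2 and 3), 516.5, 331.9 and 302.0 in undivided bulge, and 1847.3, 2232.0 and 2355.5 in non-bulge cells. Divided cells lay above undivided cells without overlap, and the array of mouse 1 that stands apart was the highest of all 18. The protease gene Prss23 gave 814.1, 720.7 and 559.4 in divided bulge, 227.6, 184.4 and 299.0 in undivided bulge, and 2997.3, 2203.9 and 2495.6 in non-bulge cells. Slc6a4 gave 417.0, 510.4 and 258.7 in divided bulge, 94.2, 153.5 and 120.7 in undivided bulge, and 2229.7, 2021.9 and 1883.2 in non-bulge cells. In both genes the divided cells sat in a gap of their own, above the undivided and far under the non-bulge cells. Itih5 gave 623.8, 294.6 and 258.6 in divided bulge, 82.6, 42.4 and 54.1 in undivided bulge, and 1026.3, 237.0 and 845.5 in non-bulge cells. Here the non-bulge array of mouse 2 was low, and it fell under all 3 divided arrays. The receptor gene Lrp4 gave 912.9, 1016.4 and 793.8 in divided bulge, 518.0, 373.5 and 277.9 in undivided bulge, and 3169.5, 2363.7 and 2265.9 in non-bulge cells. All 5 genes were higher in divided than in undivided cells in 3 of 3 mice and with no overlap, which 6.19% of all genes also were. That share is printed as background only, because these arrays chose the genes.

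As a description of the PD25 difference, divided cells had 4.40-fold the undivided level of Ntn4 (log2 difference 2.14 ± 0.36, SE of the fit, n = 3 mice), 2.84-fold that of Prss23 (1.51 ± 0.27), 2.91-fold that of Slc6a4 (1.54 ± 0.29), 5.13-fold that of Itih5 (2.36 ± 0.46) and 2.33-fold that of Lrp4 (1.22 ± 0.25). Without the divided array of mouse 1 the log2 differences were 1.50 for Ntn4, 1.39 for Prss23, 1.48 for Slc6a4, 1.98 for Itih5 and 1.22 for Lrp4. Ntn4 thus rested most on that array. Within set A, which holds only mouse 1 at PD25, they were 2.95, 1.77, 1.97, 2.70 and 0.80 in the same gene order, and within set B they were 1.73, 1.37, 1.32, 2.19 and 1.43. Ntn4 had its higher value in set A and Lrp4 in set B. Over all 11569 genes, 0 (0%) passed an adjusted p of 0.05 in this comparison by limma, and 635 had an unadjusted p under 0.05. In bulk RNA of sorted cells, fewer cells of a type and less RNA per cell cannot be told apart.

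**Figure D2:**
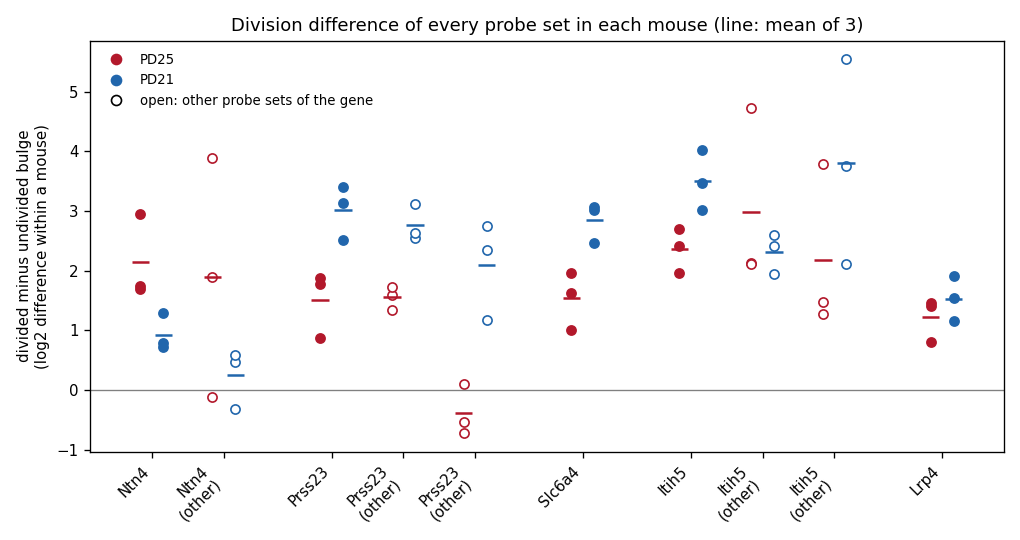
Divided minus undivided bulge within each mouse on the log2 scale, for all 10 probe sets, PD25 (red, left of each pair) and PD21 (blue). Filled points are leading probe sets, open points the other probe sets of a gene, and lines are means of 3 mice. All leading points lie above 0, while an open Prss23 probe set averages -0.38 at PD25 and an open Ntn4 probe set spans -0.12 to 3.89.

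The PD21 arrays entered the choice only through the error estimate that all 18 arrays share, and there 4 of the 5 genes were higher in divided than in undivided bulge by limma on all genes, in a comparison that called 3.91% of genes higher. Slc6a4 gave 1936.1, 2275.9 and 1429.7 in divided bulge and 217.3, 266.4 and 244.6 in undivided bulge, a 7.22-fold difference (log2 2.85 ± 0.29, limma adjusted p = 3.33e-06). Prss23 gave 3065.0, 2867.7 and 2902.9 in divided bulge and 523.9, 310.5 and 260.1 in undivided bulge, an 8.11-fold difference (log2 3.02 ± 0.27, limma adjusted p = 6.93e-07). Both rose more than 7-fold by point estimate, and every divided array exceeded every undivided one. Itih5 gave 1027.0, 1285.6 and 1408.9 in divided bulge and 113.7, 101.5 and 71.9 in undivided bulge, an 11.3-fold difference (log2 3.50 ± 0.46, limma adjusted p = 2.73e-05). Lrp4 gave 4385.4, 3281.9 and 2654.0 in divided bulge and 1157.3, 1121.6 and 1180.6 in undivided bulge, a 2.9-fold difference (log2 1.53 ± 0.25, limma adjusted p = 0.000282). Itih5 had the steepest step of the 5 genes at this age and Lrp4 the smallest that passed. Ntn4 gave 2677.0, 1924.1 and 2450.6 in divided bulge and 1617.6, 1109.1 and 992.7 in undivided bulge, a log2 difference of 0.93 ± 0.36 that did not pass (limma adjusted p = 0.13, unadjusted p = 0.0176). Its 3 divided arrays still lay above its 3 undivided arrays, as 13% of all genes did. The median of the 5 log2 differences was 2.85, beside 0.069 over all genes. Ntn4 passed when only the compared groups were fitted (limma adjusted p = 0.0257). Within set B, which holds 1 PD21 mouse, the log2 differences were 2.47 for Slc6a4 and 1.16 for Lrp4.

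At PD21 the markers of bulge stem cells moved with this difference in the opposite direction. The 20 listed bulge markers summed to 63981.7 to 98929.4 in divided bulge, 125410.1 to 238412.0 in undivided bulge and 47470.3 to 74320.0 in non-bulge cells. Of the 20 markers, none was under its array's median on all arrays. Cd34 differed by -3.80 on the log2 scale between divided and undivided bulge, and Lhx2, a transcription factor of the bulge, by -2.16. Between the bulge fractions, 15 of the 20 were lower in divided bulge without overlap and 0 higher. The 5 sebaceous markers summed to 12997.8 to 19072.7 in divided bulge, 6421.1 to 9848.9 in undivided bulge and 15594.5 to 21297.2 in non-bulge cells. Scd1, a lipid desaturase, made up 82.5% to 96.2% of that sum. Scd1 and Pparg were higher in divided bulge without overlap, as the 5 genes were, while the lipid enzyme Fasn gave 344.8, 721.7 and 948.0 in divided and 745.9, 640.4 and 951.2 in undivided bulge, which overlap, and Mc5r was never above the array median. The 10 dermal fibroblast markers summed to 7546.0 to 10241.6 in divided bulge, 19449.5 to 33864.0 in undivided bulge and 4145.6 to 5740.1 in non-bulge cells, with Pdgfra and Lum never above the array median. Sparc, a matrix glycoprotein that made up 53.6% to 88.6% of that sum, was lower in divided bulge without overlap, as were Col6a1, Col6a2 and Fbln1. The fibrillar collagens Col3a1 and Col1a2 were higher in divided bulge without overlap, as the 5 genes were. Col3a1 gave 115.1, 142.7 and 352.5 in divided, 4.3, 12.3 and 25.7 in undivided bulge and 33.6, 35.3 and 4.6 in non-bulge cells, so that, unlike the 5 genes, it was low in non-bulge cells. The part of these shifts in the PD21 result was not tested.

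At PD25 the sums of bulge markers overlapped between the bulge fractions. They summed to 103667.1 to 187474.8 in divided bulge, 105601.4 to 189822.8 in undivided bulge and 42124.2 to 88980.5 in non-bulge cells. Sebaceous markers summed to 8123.8 to 9766.5 in divided bulge, 11346.4 to 12603.0 in undivided bulge and 10381.4 to 15478.9 in non-bulge cells, which is lower in divided cells. Scd1 and Fasn were the 2 of 5 that were lower without overlap. Dermal fibroblast markers summed to 9762.6 to 18401.3 in divided bulge, 12950.6 to 14192.1 in undivided bulge and 5005.0 to 9384.9 in non-bulge cells. Within that list Col3a1, Col1a2 and the dim Lum were higher in divided bulge without overlap, as the 5 genes were, and Fbln1 was lower. Col3a1 gave 470.8, 242.7 and 167.7 in divided, 45.6, 125.2 and 96.8 in undivided bulge and 121.7, 35.5 and 10.2 in non-bulge cells. Among markers of the outer and upper follicle, Lrig1, Plet1 and Krt79 were higher in divided bulge without overlap. Krt17, Krt6a and Gata6 overlapped. Plet1 gave 495.0, 835.2 and 819.4 in divided, 224.7, 394.2 and 352.6 in undivided bulge and 861.3, 1855.2 and 1022.5 in non-bulge cells. Of the epidermal differentiation markers, Krt1 was higher without overlap, and Krt10, Lor, Ivl, Flg and Sbsn overlapped. Immune markers summed to 856.3 to 1037.3 in divided bulge, 359.4 to 846.9 in undivided bulge and 476.8 to 752.2 in non-bulge cells, which is higher in divided cells. Within that list Cd74 was higher in divided bulge without overlap, with 208.3, 338.6 and 400.3 against 95.7, 183.9 and 187.9, and the other markers overlapped. The part of these collagens and other markers in the PD25 difference was not tested. Platelets take up serotonin through this transporter, and rodent mast cells store serotonin. Of 9 mast cell markers 7 were never above the array median, with sums of 102.4 to 285.1 over all 18 arrays, and Cpa3, Cma1 and Tpsab1 were among the 7. Of 6 platelet markers on the array, Pf4, Ppbp and Gp6 were never above the array median, with sums of 78.1 to 452.7. Of 8 endothelial markers Cdh5, Kdr, Emcn and Cldn5 were never above the array median, with sums of 70.4 to 350.3. The platelet markers Itga2b, Gp1bb and Gp9 did exceed the array median on some arrays, with signals of up to 195.4, 205.2 and 112.6. Whether platelets or mast cells added to the Slc6a4 signals was not tested.

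Against cells outside the bulge, the PD25 mean of both bulge fractions was lower for 5 of 5 genes, in a comparison that called 5.27% of genes lower. This mean uses the bulge arrays of the choice with equal weight on both fractions, so it is uncorrelated with the difference that chose the genes only where the fractions vary alike. They did not for Ntn4, whose SD of log2 values was 1.10 in divided and 0.40 in undivided bulge, nor for Itih5, with 0.66 and 0.38. Slc6a4 had 0.48 and 0.31, and Prss23 had 0.27 and 0.33. Lrp4 varied more in undivided bulge, with 0.18 and 0.43. For Lrp4, choosing a high difference can therefore pull the bulge mean down, in the direction of the result below. Slc6a4 was 8.83-fold lower (log2 difference -3.14 ± 0.26, limma adjusted p = 6.1e-09) and Prss23 was 6.11-fold lower (-2.61 ± 0.23, limma adjusted p = 1.91e-08). Lrp4 was 4.30-fold lower (-2.10 ± 0.22, limma adjusted p = 2.62e-07), and in these 3 genes every bulge array lay under every non-bulge array, as in 6.44% of all genes. Itih5 was 3.64-fold lower (-1.87 ± 0.40, limma adjusted p = 0.00186), and its log2 difference was -2.50 without the low non-bulge array of mouse 2. Ntn4 was 2.64-fold lower (-1.40 ± 0.32, limma adjusted p = 0.00305), with overlap through the divided array of mouse 1. Without that array Ntn4 differed by -1.72 (limma adjusted p = 1.34e-05) and all 5 genes passed. Within set A, which holds that array and 1 PD25 mouse, so that PD21 arrays give the spread, Ntn4 differed by -0.33 (limma adjusted p = 0.749).

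At PD21 the undivided bulge was lower than non-bulge for 4 of 5 genes, in a comparison that called 4.93% of genes lower. The undivided signals are those given above, and the non-bulge signals were 2694.5, 3587.8 and 3214.5 for Prss23, which was 8.66-fold lower in undivided bulge (log2 difference -3.11 ± 0.27, limma adjusted p = 2.06e-08). For Slc6a4 they were 1937.3, 1603.7 and 1998.8, and undivided bulge was 7.19-fold lower (-2.85 ± 0.29, limma adjusted p = 3.01e-07). Undivided cells of both genes sat far under the range of non-bulge cells. For Itih5 non-bulge signals were 1361.1, 1178.6 and 1847.8, and undivided bulge was 13.2-fold lower (-3.72 ± 0.46, limma adjusted p = 3.92e-06). For Lrp4 they were 4518.8, 4712.0 and 3033.6, and undivided bulge was 3.45-fold lower (-1.79 ± 0.25, limma adjusted p = 2.38e-05). For Ntn4 they were 1697.1, 2601.3 and 2438.0, with a log2 difference of -0.86 ± 0.36 that did not pass (limma adjusted p = 0.152), and it passed when only the compared groups were fitted (limma adjusted p = 0.0477). In all 5 genes the 3 undivided arrays lay under the 3 non-bulge arrays, as in 13.3% of all genes.

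The divided bulge at PD21 did not differ detectably from non-bulge cells in any of the 5 genes. By limma 0 of 5 passed, at an unadjusted p under 0.05 also 0 of 5, in a comparison that called 0.182% of genes. The log2 differences, with their 95% intervals, were 0.08 (-0.68 to 0.83) for Ntn4, -0.09 (-0.64 to 0.46) for Prss23, 0.01 (-0.60 to 0.62) for Slc6a4, -0.22 (-1.18 to 0.73) for Itih5 and -0.25 (-0.78 to 0.27) for Lrp4. Among these leading probe sets only the interval of Itih5 reaches a 2-fold difference. The other Ntn4 probe set differed by -1.19 ± 0.56 (limma adjusted p = 1) and was lower in divided bulge in 3 of 3 mice, by -0.52, -2.27 and -0.78. The PD25 counterpart shares the arrays of the choice and is given as values only. There the divided minus non-bulge log2 differences were -0.33 for Ntn4, -1.86 for Prss23, -2.37 for Slc6a4, -0.69 for Itih5 and -1.49 for Lrp4.

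**Figure D3:**
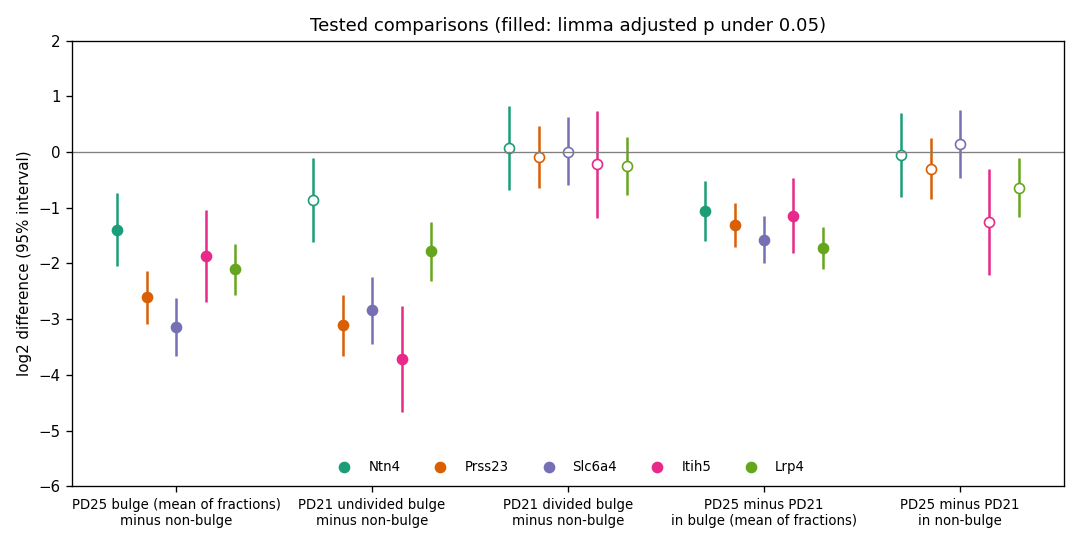
Log2 differences of the 5 genes in 5 comparisons other than the one that chose them, with 95% intervals from the fit on 18 arrays. Both comparisons with a PD25 bulge mean use the arrays of the choice. Filled points passed a limma adjusted p of 0.05. All 5 points are filled for PD25 bulge against non-bulge and for PD25 against PD21 in bulge, and all 5 are open for PD21 divided bulge against non-bulge and for the ages of non-bulge cells.

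Between the ages, the leading probe sets of all 5 genes were lower at PD25 than at PD21 in the mean of both bulge fractions. That comparison called 2.4% of genes lower. The PD25 bulge mean uses the arrays of the choice, so the limit given above for unlike spreads applies here and to the interaction below. The receptor gene Lrp4 was 3.31-fold lower (log2 difference -1.73 ± 0.18, limma adjusted p = 2.5e-06) and the transporter gene Slc6a4 2.98-fold lower (-1.57 ± 0.21, limma adjusted p = 6.01e-05). Prss23 was 2.48-fold lower (-1.31 ± 0.19, limma adjusted p = 0.00016). Ntn4 was 2.08-fold lower (-1.06 ± 0.26, limma adjusted p = 0.0176) and Itih5 2.21-fold lower (-1.15 ± 0.33, limma adjusted p = 0.0438). The other Ntn4 probe set differed by only -0.32 (limma adjusted p over all probe sets = 0.815). With the mean of its probe sets Ntn4 differed by -0.69 and did not pass (limma adjusted p = 0.183). The other Itih5 probe sets differed by -2.53 and -1.64 (limma adjusted p over all probe sets = 0.00189 and 0.034). Itih5 kept its call in 11 of 27 alternative settings, missing it with mouse as a block (limma adjusted p = 0.0891), and Ntn4 kept it in 19 of 27. Slc6a4 and Prss23 kept it in 26 of 27 each and Lrp4 in 27. Within set B, where PD21 is 1 mouse per fraction and other groups give its spread, the log2 differences were -1.38 for Ntn4 and -1.15 for Prss23. Those of Slc6a4 and Itih5 were -1.35 and -1.37 there. Without the PD25 divided array of mouse 1 all 5 passed, with -1.38 for Ntn4 and -1.34 for Itih5.

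In non-bulge cells no age difference was detected, with 0 of 5 genes passing by limma, where 0.0432% of all genes were called. At an unadjusted p under 0.05 there were 2 of the 5, beside 4.42% of all genes. The PD25 minus PD21 log2 differences, with 95% intervals, were -0.05 (-0.80 to 0.70) for Ntn4, -0.30 (-0.85 to 0.25) for Prss23 and 0.15 (-0.46 to 0.76) for Slc6a4. They were -1.25 (-2.21 to -0.30) for Itih5 and -0.64 (-1.16 to -0.11) for Lrp4, the 2 genes with an unadjusted p under 0.05. Whether the bulge changed with age differently from non-bulge cells was tested as an interaction, in which 0 of 5 genes passed and 0% of all genes were called. At an unadjusted p under 0.05 there were 4 of the 5, beside 6.54% of all genes. Slc6a4 came closest, at -1.72 ± 0.36 on the log2 scale (limma adjusted p = 0.0758), and it passed with mouse as a block (limma adjusted p = 0.0462). The other interaction values were -1.01 ± 0.45 for Ntn4, -1.01 ± 0.33 for Prss23, 0.11 ± 0.57 for Itih5 and -1.09 ± 0.31 for Lrp4. Without the PD25 divided array of mouse 1 the value of Ntn4 was -1.33 and 0 of 5 passed. Without the block, an age change of the bulge beyond that of non-bulge cells passed for none of the 5 genes.

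The age differences of single bulge fractions include the arrays of the choice and are given as values. In divided bulge the PD25 minus PD21 log2 differences were -0.46 for Ntn4, -2.07 for Prss23, -2.23 for Slc6a4, -1.72 for Itih5 and -1.88 for Lrp4. In undivided bulge they were -1.66 for Ntn4, -0.55 for Prss23, -0.92 for Slc6a4, -0.58 for Itih5 and -1.57 for Lrp4. By these values Ntn4 was further apart between the ages in undivided cells, and Prss23, Slc6a4 and Itih5 in divided cells. None of these differences between fractions was tested.

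The place of divided cells on the way from undivided bulge to non-bulge cells was computed for each gene, as a description made after the data were seen, with 0% at the undivided and 100% at the non-bulge mean of log2 values. At PD25 divided cells stood at 86.6% of the way for Ntn4, 44.7% for Prss23, 39.3% for Slc6a4, 77.5% for Itih5 and 45% for Lrp4. Without the divided array of mouse 1 the places were 60.8%, 41.3%, 37.7%, 65.1% and 44.7% in the same gene order. At PD21 they stood at 108.9%, 97.0%, 100.2%, 94.0% and 85.9%. The place of Ntn4 at PD21 is imprecise, since its undivided to non-bulge gap did not pass and single mice gave 1051.9%, 64.5% and 100.6%. On the linear scale the PD25 places were 97.2%, 19.8%, 14.2%, 51.7% and 23.4%, and the PD21 places were 110.5%, 92.1%, 102.1%, 83.8% and 77.9%. By group means of log2 values the genes other than Ntn4 thus lay within 85.9% to 100.2% at PD21 and within 39.3% to 77.5% at PD25. Of the 20 bulge markers, 13 exceeded their PD21 non-bulge level by at least 2 log2 units in undivided bulge. On the log2 scale these 13 had covered a median of 1.2% of the way at PD25 and 59.4% at PD21. On the linear scale the medians were 6.0% at PD25 and 87.7% at PD21. At PD25 Cd34 had covered 13.9%, Sox9 -0.8% and Runx1 -3.1% on that scale, while Wif1 had covered 61.6% and Igfbp5 68.9%, and Lgr5 stood beyond its undivided level at -184.6%. Divided minus undivided log2 differences of the 13 markers had a median of -0.05 at PD25 and -2.54 at PD21. By median the 13 bulge markers stood near their undivided level at PD25 on both scales. The 5 genes stood above theirs, which their choice by this difference in the same arrays fixed in advance. On the linear scale, the PD25 places of Slc6a4, Prss23 and Lrp4 lay between those of the markers Cd34 (13.9%) and Grem1 (28.6%). At PD21 both the 5 genes and, by median, the markers stood nearer to non-bulge cells.

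**Figure D4:**
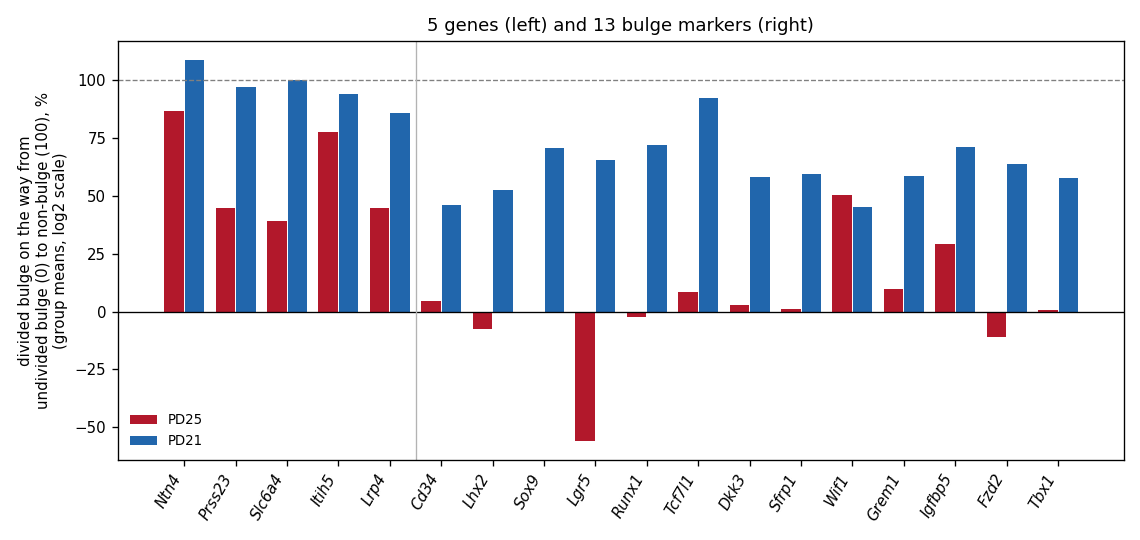
Place of divided bulge between undivided bulge (0%) and non-bulge cells (100%) on the log2 scale, PD25 (red, left of each pair) and PD21 (blue), for the 5 genes and for 13 bulge markers with a PD21 gap of at least 2 log2 units. At PD25 the 5 genes lie at 39.3% to 86.6% and the markers at a median of 1.2%, and at PD21 the genes lie at 85.9% to 108.9% and the markers at a median of 59.4%. The 5 genes were chosen for standing above undivided bulge at PD25, so their PD25 places describe only.

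Prss23, Slc6a4, Itih5 and Lrp4, but not Ntn4, passed as lower in PD21 undivided bulge than in non-bulge. Apart from the members, 566 genes also passed, and of these 77.7% were higher in divided than in undivided bulge at PD25, with a median log2 difference of 0.36 (quartiles 0.03 and 0.78). Over all 11569 genes 52.2% were higher, with a median of 0.02. Of the 708 genes that passed as higher in PD21 undivided bulge than in non-bulge, 43.1% were higher. A difference as large as that of Lrp4, the smallest of the 5, was reached by 62 of the 566 (11%) and by 229 (2.0%) of all genes. Most genes that were low in undivided bulge at PD21 thus had a positive difference at PD25, as the 5 genes had. These values share the PD25 arrays of the choice and were computed after the data were seen, so they describe and do not test.

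Other probe sets of the same genes mostly ran alongside the leading ones. Another Prss23 probe set averaged 1.56 in divided minus undivided bulge at PD25, with 1.59, 1.35 and 1.73 in mouse 1, 2 and 3, and 2.77 at PD21 (limma adjusted p over all probe sets = 4.6e-05). The remaining Prss23 probe set gave 4.0, 131.8 and 20.8 in divided and 16.9, 120.6 and 37.6 in undivided bulge at PD25, with log2 differences of -0.72, 0.11 and -0.54. Its PD21 difference was 2.09 and just missed the threshold (limma adjusted p = 0.057), so the probe sets of Prss23 disagreed at PD25, where this one was dim. Both other Itih5 probe sets were higher in divided bulge in 3 of 3 mice at both ages, with PD25 means of 2.99 and 2.18 and PD21 means of 2.32 and 3.80. The other Ntn4 probe set gave PD25 differences of 3.89, 1.90 and -0.12 and a PD21 mean of 0.25 (limma adjusted p = 0.899). For Ntn4 the mice therefore disagreed at PD25 outside the leading probe set. Slc6a4 and Lrp4 were read by 1 probe set each.

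Relatives and partners of the 5 genes were read from lists that had been chosen with earlier results of these data known. Among genes of monoamine handling, 2 of 5 tested genes other than Slc6a4 were higher in divided than in undivided bulge at PD21 and 0 lower. That comparison called 3.91% of all genes higher. Slc6a2, the noradrenaline transporter and the nearest functional relative of Slc6a4, gave 3172.8, 3921.7 and 2277.0 in divided bulge, 424.8, 1021.2 and 159.2 in undivided bulge and 3824.2, 3710.9 and 3459.1 in non-bulge cells at PD21, a log2 difference of 2.83 ± 0.47 (limma adjusted p = 0.000298). Maoa, a mitochondrial enzyme that degrades serotonin and noradrenaline, was higher by 1.28 ± 0.37 (limma adjusted p = 0.0308). At PD25 Slc6a2 gave 918.1, 905.0 and 742.2 in divided bulge, 161.8, 366.1 and 515.8 in undivided bulge and 7079.1, 2093.6 and 3493.7 in non-bulge cells, and every divided array exceeded every undivided one. In the mean of both bulge fractions at PD25, Slc6a2 was lower than in non-bulge by 2.81 ± 0.41 on the log2 scale (limma adjusted p = 2.54e-05) and Maoa by 1.76 ± 0.32 (limma adjusted p = 0.00034). At PD25 Slc6a4, Slc6a2 and Maoa thus had the same order of group means.

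Skin serine proteases and their inhibitors held 18 tested genes other than Prss23, of which 6 were higher and 0 lower in divided than in undivided bulge at PD21. Of all genes, 3.91% were called higher there. Plau, urokinase, rose by 1.41 ± 0.25 (limma adjusted p = 0.000578), Tmprss4, a membrane protease, by 1.50 ± 0.34 (limma adjusted p = 0.00551), Klk11, a kallikrein, by 1.60 ± 0.38 (limma adjusted p = 0.00737) and Serpinb2, an inhibitor of urokinase, by 1.86 ± 0.50 (limma adjusted p = 0.0206). At PD25, 5 of the 18 were lower in bulge than in non-bulge, Plau, Tmprss4, Klk11 and Serpinb2 among them. Of all genes, 5.27% were called lower in that comparison. The median of the 18 at PD25 between divided and undivided bulge was 0.30, beside 0.019 over all genes.

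The families of the other genes ran differently. Of 10 tested LDL receptor family genes other than Lrp4, 3 were lower and 0 higher in divided than in undivided bulge at PD21, where 4.37% of all genes were called lower. They were Ldlrad3 (-2.60 ± 0.41, limma adjusted p = 0.000155), Lrp12 (-1.53 ± 0.41, limma adjusted p = 0.0178) and Sorl1 (-1.13 ± 0.34, limma adjusted p = 0.0417). The same 3 genes were higher in bulge than in non-bulge at PD25, a comparison that called 7.04% of genes higher, with Ldlrad3 at 3.64 ± 0.35 (limma adjusted p = 8.22e-08). Lrp4 thus ran opposite to these 3 relatives in both comparisons. Vldlr, another relative and named after its values were seen, ran the same way as Lrp4 at PD21, lower in undivided bulge than in non-bulge by 1.23 ± 0.29 (limma adjusted p = 0.00539), with a divided minus undivided value of 0.86 that did not pass (limma adjusted p = 0.0703). The list for Lrp4 held ligands and partners and also secreted Wnt modulators. Of its 5 tested genes, 1 was lower in divided bulge at PD21, the Wnt modulator Dkk3 (-2.88 ± 0.42, limma adjusted p = 8.79e-05), which is also one of the bulge markers. The ligand genes Agrn and Sostdc1 did not pass, with mean log2 values of 13.04 and 14.12 in divided and 13.96 and 14.99 in undivided bulge. The list of netrins and their receptors held 8 tested genes other than Ntn4, none of them a netrin. They were Neo1, Dcc, Unc5a, Unc5b, Mcam, Dapk1, Rgma and Rgmb. Of these, 0 passed by limma in that comparison and 1 had an unadjusted p under 0.05, the receptor Neo1 (-0.82 ± 0.26, limma adjusted p = 0.0559). Of 10 laminins and laminin receptors, 2 were lower and 0 higher, Lamb1 (-1.64 ± 0.30, limma adjusted p = 0.000806) and Itgb4 (-0.87 ± 0.26, limma adjusted p = 0.0377). Of 8 genes of hyaluronan handling other than Itih5, the hyaluronidase Cemip2 was lower (-1.01 ± 0.30, limma adjusted p = 0.0378).

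Genes of the cell cycle were listed because the fractions were sorted by divisions. Their PD21 count stands beside 3.91% of all genes called higher in divided than in undivided bulge. At PD21, 4 of 29 were higher and 0 lower in divided than in undivided bulge, namely the mitotic motors Kif11 (1.32 ± 0.32, limma adjusted p = 0.00897) and Cenpe (1.59 ± 0.40, limma adjusted p = 0.0112), the cyclin Ccnb2 (1.36 ± 0.40, limma adjusted p = 0.0322) and the mitotic activator Cdc20 (1.41 ± 0.44, limma adjusted p = 0.0467). At PD25 the median of the 29 in divided minus undivided bulge was -0.56, beside 0.60 at PD21, with 0.019 and 0.069 over all genes. Without the divided array of mouse 1 the PD25 median was -0.27, and 7 of the 29 values were positive, against 3 with all arrays. At PD25 by limma 0 of the 29 passed while 6 had an unadjusted p under 0.05, all 6 lower in divided bulge. Over all genes 5.49% had an unadjusted p under 0.05 by limma in this comparison, in either direction. Dilution of the label reports divisions that have already taken place over the chase.

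Across the 18 arrays the 5 genes ran together, with Pearson correlations between pairs from 0.767 (Ntn4 with Slc6a4) to 0.969 (Prss23 with Slc6a4), as a description over arrays that share groups and mice. The genes most like each of them by the same measure were Tnfrsf19 (0.972), Aldh9a1 (0.970) and Slc2a12 (0.968) for Prss23. For Slc6a4 they were Cpxm2 (0.971), 4930550C14Rik (0.971) and Ctsh (0.967). For Lrp4 they were Clca3a2 (0.964), Cxadr (0.960) and Klf5 (0.958). The closest genes to Itih5 were Dennd4c (0.936), Galnt1 (0.935) and Epas1 (0.934), and those to Ntn4 were Mettl7a2 (0.854), Adm (0.840) and Nat8l (0.836). Ntn4 had no partner as close as those of the other genes. Of the 15 genes named here, Slc2a12 is a sugar transporter, Ctsh a lysosomal protease, Tnfrsf19 a receptor of the TNF family and Klf5 a zinc finger transcription factor of epithelia.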

How the data were processed

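The authors deposited linear intensity values per probe set for 18 arrays. They were made with GCOS, per the submitters' processing notes, with no version stated there. The 2% trimmed mean of every array was 500, so no further scaling was applied. From here on, log2(signal + 16) was used. The table has 45101 probe sets, including 64 controls. GEO's platform annotation pairs 34945 with 1 symbol, 932 with more than 1 and 9160 with none. Probe sets with 1 symbol that exceeded the array median in at least 3 arrays were kept (22351), and each of 11569 genes was represented by its brightest one on average. All 6 groups were fitted with limma 3.58.1 in R 4.3.3 (lmFit, eBayes with trend, 12 residual and 11.2 prior degrees of freedom), with Benjamini-Hochberg adjustment over all genes and a threshold of 0.05. The fit was tested on simulated data.

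The members and lists were chosen with earlier results of these data known. The PD25 divided against undivided difference, and those that share its arrays unevenly, carry no test. Named genes are all members, up to 4 genes of a list by lowest p at PD21, and the 3 genes most like each member. A fold change on the log2(signal + 16) scale understates the change of dim genes, and the number of arrays limits precision. Mouse numbers of the labels pair the 3 fractions of a mouse: deviations from group means correlated by 0.075 to 0.462 (median 0.198, 18 pairs) within a mouse, against -0.260 to 0.128 (median -0.169, 36 pairs) between mice. Alternatives were other pseudocounts, filters, normalizations and probe set rules, blocks by mouse or array set, fits within array sets, and leaving out each array.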

Additional observations from a re-analysis of the deposited data

How the results depend on the processing

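Of 840 values of the 5 genes in tested comparisons under the alternatives, 807 kept their side of the threshold. Of the rest, 30 lost the call and 3 gained it. Among values that passed in either fit, 0 reversed direction. Values that passed in neither fit could change sign and still count among the 807. Ntn4 in PD21 divided bulge minus non-bulge, for example, ranged from -0.56 to 0.21 on the log2 scale. For divided against undivided bulge at PD21, 4 of 5 genes passed with all arrays, and leaving out any 1 array kept 4. Within array set B, which holds 1 PD21 mouse, the log2 differences were 2.47 for Slc6a4 and 1.16 for Lrp4, against 2.85 and 1.53 with all arrays. For PD25 against PD21 in the bulge mean, 3 of 5 genes passed without the mean-variance trend, against 5 with it. Over all 11569 genes, 386 were called without the trend and 526 with it. Within set A, which holds 1 PD25 mouse, the log2 differences were -0.25 for Ntn4 and -0.59 for Itih5. Within set B, which holds 1 PD21 mouse, they were -1.38 and -1.37. When 1 array was left out, 3 to 5 of the 5 genes passed, while 320 to 630 of all genes were called. Counts of 3 came from leaving out mouse 1 of PD21 undivided or divided bulge, or mouse 2 or 3 of PD25 divided bulge, and Itih5 and Ntn4 were lost in each. The sets hold fewer mice, and the other causes were not tested. With mouse as a replicate block, 1 of 5 genes, Slc6a4, passed the bulge by age interaction, against 0 without it. Over all 11569 genes, 30 passed it with the block and 0 without. With the block Itih5 lost its age call in bulge, and no other call changed. Median centring moved the median of all genes at PD25 between divided and undivided bulge to -0.143, against 0.019, and the differences of the 5 genes to between 1.06 and 2.20. With 64 in place of 16 added to the signal, the PD25 difference of Itih5, a dim gene in undivided bulge, was 1.81, against 2.36.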

Other observations

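Within single mice, the place of divided bulge between undivided bulge (0%) and non-bulge cells (100%) at PD25 on the log2 scale differed between genes in the same animals. It was 163.5%, 65.1% and 58.6% for Ntn4 in mouse 1, 2 and 3, and 79.3%, 114.0% and 54.4% for Itih5. It was 48.7%, 54.1% and 29.0% for Prss23, 45.4%, 45.6% and 26.5% for Slc6a4, and 31.0%, 53.9% and 49.5% for Lrp4. By these leading probe sets, Ntn4 and Itih5 stood further along than the other 3 genes in each mouse. The order does not carry over to every probe set. In mouse 3 the other Ntn4 probe set had a divided minus undivided log2 difference of -0.12, so divided bulge stood under undivided bulge. No test was made, since these arrays chose the genes.

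The low Itih5 value of non-bulge mouse 2 at PD25 was seen in 2 of 3 probe sets. The leading one gave 1026.3, 237.0 and 845.5 in mouse 1, 2 and 3, another gave 463.7, 184.1 and 513.6, and the remaining one gave 1025.5, 492.7 and 416.5, where mouse 2 was not the lowest.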
